A study of Mus musculus with 19 samples.

Results

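A set of 32 genes that mark neurons was described in libraries made from sorted astrocyte nuclei of mouse cortex. The genes were taken by symbol from the deposited expression table, which held all 32 among 24537 genes, and 30 of them had a mean of at least 1 TPM, the level set for testing. The study sorted nuclei that stained for SOX9, an astrocyte transcription factor, and not for NEUN, a neuronal nuclear antigen, and sequenced their nuclear RNA after ribosomal RNA depletion. There were 19 libraries, from C57BL/6J mice reared normally and taken at postnatal day 26, 27 or 28. All were hemizygous for their Fmr1 allele, written with y, so they were males.

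In every library both Smad4 alleles were floxed (Smad4 fl/fl), and the groups differed in the Fmr1 allele and in the cre transgene. The double mutant had Fmr1 -/y and GFAP-cre+ (4 libraries), Fmr1 KO had Fmr1 -/y and GFAP-cre- (5 libraries), Smad4 cKO had Fmr1 +/y and GFAP-cre+ (6 libraries), and WT had Fmr1 +/y and GFAP-cre- (4 libraries). The cre line was Gfap-Cre73.12, whose promoter is active in astrocytes and in some neural progenitors, so recombination follows that promoter and not the sort. Day 26 held 2 double mutant, 2 Fmr1 KO, 3 Smad4 cKO and 1 WT libraries. Day 27 held 2 double mutant, 3 Fmr1 KO, 2 Smad4 cKO and 2 WT libraries, and day 28 held 1 Smad4 cKO and 1 WT library.

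Neurons and astrocytes share the cortex but run different gene programs. Neurons keep a cytoskeleton of neurofilaments and neuronal tubulin, release transmitter from synaptic vesicles through SNARE proteins and synaptotagmin, and carry either the glutamate or the GABA machinery. Glutamatergic neurons load vesicles with SLC17A7 and sense glutamate with NMDA receptors, while GABAergic interneurons make GABA with GAD1 and GAD2, load it with SLC32A1, and are split into classes by peptides such as somatostatin. Rbfox3 encodes the splicing factor that the NEUN antibody binds, so it is the transcript of the antigen used to keep neurons out. Some neuronal genes hold a cAMP response element (CRE), the site of the activity-driven factor CREB.

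The promoters are shown for 4 of the 16 members that were higher on day 27 in the comparison below. They include Sst and Syn1, the only 2 members with a CRE in a listed promoter. Rbfox3 encodes the excluded antigen, Snhg11 differed most between days, Sst had the highest mean level of the interneuron peptide genes, and Syn1 encodes the vesicle phosphoprotein synapsin I. Each runs 5′ to 3′ from 250 bases before to 50 bases after the 1 start that the RefSeq-based promoter table lists for the gene on GRCm38.p6. That start is the outermost one of the RefSeq locus for Snhg11 and Syn1, but lies 498 bases inside the locus for Sst and 150.6 kb inside it for Rbfox3, so the Rbfox3 sequence is an internal start and not the outermost promoter. Capitals mark a CRE (TGACGTCA). The coordinates are chr11:118760992-118761291 on the minus strand for Rbfox3, chr2:158375463-158375762 on the plus strand for Snhg11, chr16:23890795-23891094 on the minus strand for Sst and chrX:20920869-20921168 on the minus strand for Syn1.
Rbfox3: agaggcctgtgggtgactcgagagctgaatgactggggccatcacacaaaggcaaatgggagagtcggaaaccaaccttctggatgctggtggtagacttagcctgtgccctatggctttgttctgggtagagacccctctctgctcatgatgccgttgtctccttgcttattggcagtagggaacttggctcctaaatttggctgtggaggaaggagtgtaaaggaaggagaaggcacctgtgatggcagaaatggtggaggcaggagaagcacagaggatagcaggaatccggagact
Snhg11: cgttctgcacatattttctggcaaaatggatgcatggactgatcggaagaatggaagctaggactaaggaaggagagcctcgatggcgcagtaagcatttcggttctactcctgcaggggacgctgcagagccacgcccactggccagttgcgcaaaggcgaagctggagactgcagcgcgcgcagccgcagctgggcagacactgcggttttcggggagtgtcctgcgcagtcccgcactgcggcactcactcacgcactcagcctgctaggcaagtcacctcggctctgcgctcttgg
Sst: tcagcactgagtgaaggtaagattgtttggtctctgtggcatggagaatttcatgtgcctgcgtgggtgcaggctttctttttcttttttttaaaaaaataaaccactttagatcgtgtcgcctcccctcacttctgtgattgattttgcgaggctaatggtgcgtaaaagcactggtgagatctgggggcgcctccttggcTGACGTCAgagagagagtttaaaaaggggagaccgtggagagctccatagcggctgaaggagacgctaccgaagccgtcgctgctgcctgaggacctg
Syn1: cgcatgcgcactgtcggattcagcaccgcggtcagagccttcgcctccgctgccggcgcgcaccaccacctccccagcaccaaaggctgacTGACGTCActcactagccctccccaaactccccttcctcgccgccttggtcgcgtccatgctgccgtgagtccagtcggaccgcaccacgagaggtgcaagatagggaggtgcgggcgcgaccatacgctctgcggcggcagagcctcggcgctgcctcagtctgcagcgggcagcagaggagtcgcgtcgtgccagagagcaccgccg

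The CRE of Sst began 48 bases before the start, and that of Syn1 began 159 bases before it. Promoters were listed for 23 of the 32 members, 27 sequences in all, and were searched on both strands. The CRE letters stood in the promoters of Sst and Syn1, and in 1.79% of all 32851 promoters of the same length. The TATA box letters TATAAA stood in those of 5 members (Bcl11b, Cux2, Eno2, Gad1 and Vip), against 13.6% of all promoters. A match is a description of these letters only.

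The libraries carried the astrocyte program, and the neuronal genes as a sum lay well below the astrocyte markers as a sum. Levels below are scaled TPM, in which each library's TPM (a share of its transcripts, corrected for length) was divided by 1 factor, 0.921 to 1.07. The listed TPM summed to between 665382 and 716222 per library, below the full total of TPM. The glutamate transporter Slc1a2 averaged 2101, the glutamine synthetase gene Glul 1449, Aldoc 996 and the sorted factor's gene Sox9 208 (98.2 to 391), and all 15 astrocyte markers were above 0 in every library. Summed over the 15, astrocyte markers ranged from 7119 to 12256 over libraries, while the 32 neuronal genes summed to between 299 and 1395. Single genes overlapped, since Snhg11 averaged 235, above Sox9 and above Gfap at 164, and Map2 averaged 76.4, above S100b at 47.8. Rn45s, the ribosomal RNA precursor, took 15.6% to 35.7% of the listed TPM. The number of reads behind a value is unknown, since TPM keeps no depth. Against its label, Fmr1 itself was listed higher in libraries labelled Fmr1 KO, with 35.4 to 38.7 in the double mutant and 36.5 to 41.6 in Fmr1 KO, against 20.5 to 26.8 in Smad4 cKO and 21.6 to 31.5 in WT. Smad4 was at 30.7 to 36.1 in the double mutant and 31.1 to 34.7 in Fmr1 KO, against 29.8 to 35.4 in Smad4 cKO and 30.2 to 36.5 in WT. A value per gene does not resolve either allele, so groups are named by their labels and no direction by genotype below rests on more than the label.

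Among the pan-neuronal genes, the long RNA Snhg11, host of small nucleolar RNAs, was the most abundant, with a mean scaled TPM of 235 (51.9 to 755), above 99.0% of the 15049 genes tested. Map2, a microtubule protein of dendrites, followed at 76.4 (67.1 to 86.1), then the surface glycoprotein gene Thy1 at 41.9 (27.8 to 66.9) and neuronal enolase, Eno2, at 38.2 (22.9 to 73.7). Rbfox3 was at 3.59 (1.13 to 9.59) and above 0 in all 19 libraries. The other cytoskeletal genes were at 11.7 for Nefl, 7.91 for Tubb3, 4.46 for Nefm and 2.56 for Stmn2, which encodes a microtubule regulator of growing axons. The heavy neurofilament gene Nefh, at a mean of 0.921, was under the level set for testing and was listed at 0 in 1 library.

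Of the vesicle genes, Syp was at 25.6 (14.0 to 65.0), the SNARE gene Snap25 at 12.8 (4.98 to 27.4), the calcium sensor Syt1 at 7.16 and Syn1 at 6.89. Of the glutamatergic genes, the vesicular transporter Slc17a7 was at 30.2 (12.6 to 96.0) and the kinase gene Camk2a at 25.2, while the cortical transcription factor genes Cux2, Neurod2, Tbr1, Neurod6 and Bcl11b lay between 2.35 and 9.03. Slc17a6, the transporter of thalamic glutamatergic neurons, was at 0.222 (0.0533 to 0.429) and was not tested. The NMDA receptor genes were at 24.0 for the obligatory subunit Grin1, 11.7 for Grin2b and 4.80 for Grin2a. Of the GABAergic genes, the somatostatin gene Sst was at 20.9 (1.77 to 65.4), Slc32a1 at 7.27, Gad1 at 7.08, the neuropeptide Y gene Npy at 3.44, Vip at 3.23, Gad2 at 2.31 and the parvalbumin gene Pvalb at 1.09. Vip, which encodes the peptide of another interneuron class, was listed at 0 in 1 Smad4 cKO library and reached 12.0.

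The members differed widely in how far they ranged across libraries. Map2 varied by 1.28-fold from lowest to highest and Thy1 by 2.41-fold. Rbfox3 varied by 8.52-fold, Snhg11 by 14.5-fold, Neurod6 by 24.4-fold, Nefm by 26.8-fold and Sst by 36.9-fold. Vip and Nefh, each listed at 0 in 1 library, have no such ratio. Of the 30 tested members, 29 had their highest value in a day 27 library and 23 their lowest in a day 26 library. Day 27 held 9 of the 19 libraries and day 26 held 8. The share over all genes was not computed and members of a library are not independent, so these counts are a description. WT replicate 3 was highest for 13 members, double mutant replicate 3 for 9 and Smad4 cKO replicate 6 for 5, all of day 27. The 9 of double mutant replicate 3 were Nefl, Nefm, Slc17a7, Sst, Neurod6, Syp, Thy1, Tubb3 and Eno2, whereas the 13 of WT replicate 3 included Snap25, Syt1, Gad1, Gad2, the NMDA receptor genes Grin1 and Grin2a, and Snhg11.

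**Figure D1:**
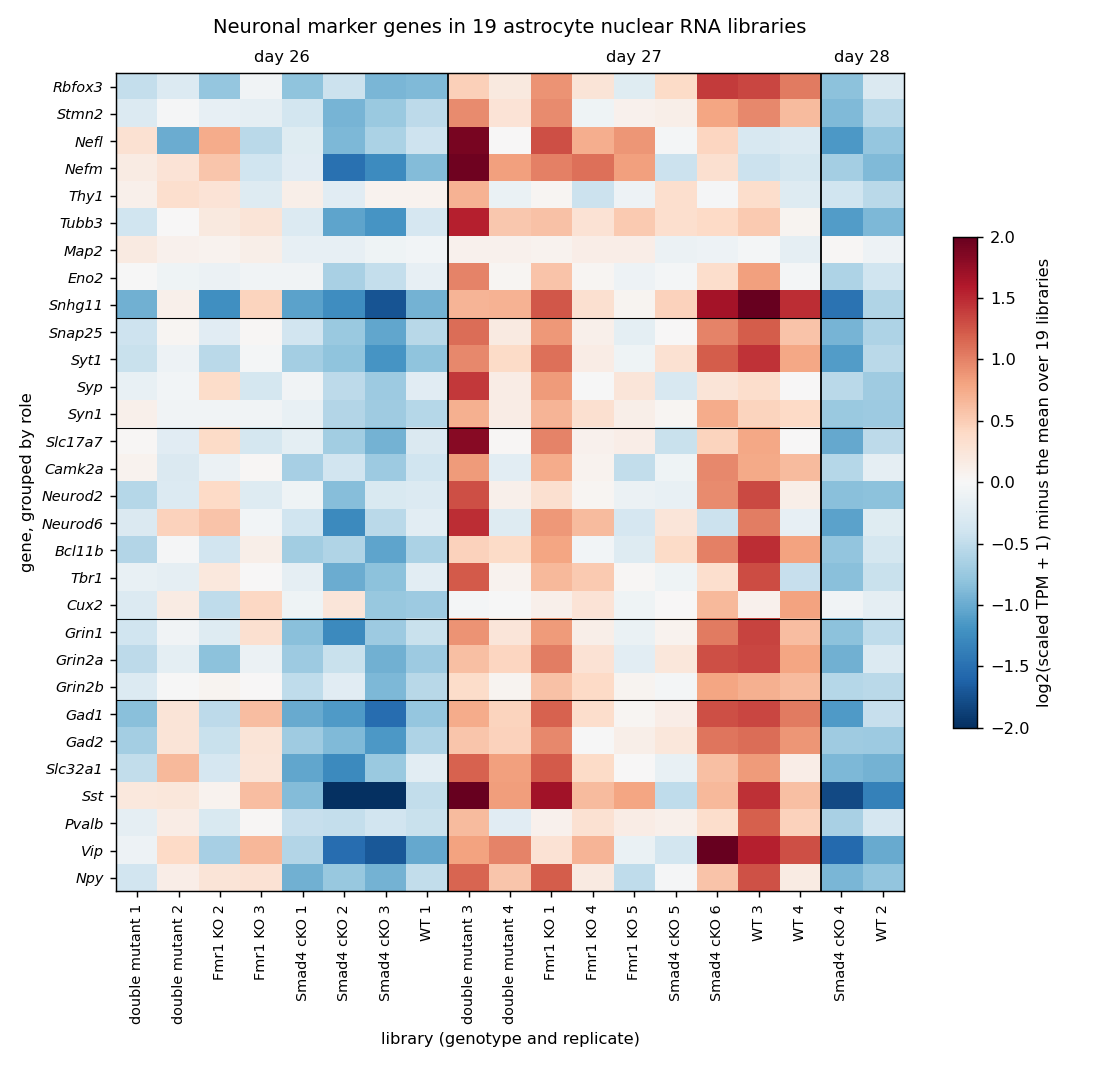
Heat map of the 30 tested members (rows) in 19 libraries (columns, ordered by postnatal day and then genotype label), coloured by log2(scaled TPM + 1) minus the gene's mean over libraries, with colours ending at -2 and 2. Most rows are high in the day 27 columns, and Map2 and Thy1 change little across the row.

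The labels give a postnatal day for each library, and the levels were compared between days with genotype in the model. Between day 27 and day 26, 16 of the 30 members were higher on day 27 and 0 were lower (limma, adjusted p under 0.05), where 5.83% of all 15049 genes passed, 3.62% higher and 2.21% lower. The median difference of the members was 0.82 on the log2 scale, against -0.0042 over all tested genes, and 29 members lay above 0. In bulk libraries a difference in the number of neuronal nuclei cannot be told apart from a difference in RNA per neuronal nucleus. Nor can day of age be told apart from the session in which nuclei were prepared, since the labels give no session. Differences are of log2(scaled TPM + 1) with their standard error, and understate the change of low genes.

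Snhg11 showed the largest difference. It was at 51.9, 85.6 and 239 scaled TPM (lowest, median and highest of 8 libraries) on day 26, at 181, 284 and 755 (9 libraries) on day 27, and at 61.7 and 114 in the 2 libraries of day 28. Most day 27 libraries lay above most of day 26, with overlap between 181 and 239, and the difference was 1.71 ± 0.32 (adjusted p = 0.0120). Rbfox3 was at 1.13, 1.61 and 2.80 on day 26, 2.38, 4.55 and 9.59 on day 27, and 1.27 and 2.26 on day 28, a difference between days 27 and 26 of 1.20 ± 0.22 (adjusted p = 0.0118). The transcript of the antigen used for exclusion thus ran with the other neuronal transcripts. Stmn2 was at 0.708, 1.62 and 2.21 on day 26, 2.07, 4.04 and 5.32 on day 27, and 0.779 and 1.24 on day 28 (0.88 ± 0.18, adjusted p = 0.0168). Tubb3, neuronal beta-tubulin, rose by 0.83 ± 0.19 on day 27.

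The neurofilament genes were spread over genotypes as well as days. Nefm was at 0.614, 2.65 and 5.62 on day 26, 2.35, 6.95 and 16.4 on day 27, and 1.44 and 1.82 on day 28 (0.91 ± 0.21, adjusted p = 0.0240). Nefl was at 4.40, 6.71 and 16.96 on day 26, 7.61, 13.5 and 39.1 on day 27, and 3.86 and 5.28 on day 28, and its difference of 0.81 ± 0.28 did not pass (adjusted p = 0.0966). Nefl and Nefm lie on opposite strands of chromosome 14. The GENCODE spans of the pair overlap (68083863 to 68089095 for Nefl, 68082590 to 68124846 for Nefm). Their RefSeq spans do not (68083863 to 68089095 for Nefl, 68119545 to 68125004 for Nefm). Where the GENCODE spans overlap, reads of the pair cannot be told apart unless strand was counted, which the sources do not say. Nefh was at 0.110, 0.598 and 1.28 on day 26, 0.344, 1.14 and 2.32 on day 27, and 0 and 0.423 on day 28, below the testing level. Thy1 and Map2 differed little: Thy1 was at 34.3, 43.6 and 52.2 on day 26, 30.2, 40.1 and 66.9 on day 27, and 27.8 and 30.7 on day 28 (0.01 ± 0.13, adjusted p = 0.974), and Map2 gave -0.00065 ± 0.03 (adjusted p = 0.994). Eno2 was at 0.47 ± 0.15 (adjusted p = 0.0793).

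Of the 4 vesicle genes 3 were higher on day 27. Syt1 was at 2.11, 3.61 and 5.84 on day 26, 5.62, 11.0 and 18.2 on day 27, and 2.25 and 3.81 on day 28 (1.23 ± 0.22, adjusted p = 0.0108). Snap25 was at 4.98, 8.38 and 11.7 on day 26, 9.79, 17.2 and 27.4 on day 27, and 5.49 and 7.07 on day 28 (0.91 ± 0.21, adjusted p = 0.0257). Syn1 rose by 0.65 ± 0.13. The groups overlapped for each of them by a narrow margin, and Syp, the vesicle membrane protein synaptophysin, was at 0.52 ± 0.19 (adjusted p = 0.114). Syn1 overlaps 2 other protein-coding genes in GENCODE, Araf and Timp1, on the opposite strand.

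All 3 NMDA receptor genes were higher on day 27: Grin2a by 1.17 ± 0.21 (adjusted p = 0.0107), Grin1 by 0.95 ± 0.22 and Grin2b by 0.66 ± 0.15. Of the 7 glutamatergic genes tested, Bcl11b alone passed, at 0.99 ± 0.22, and it encodes a transcription factor found in deep-layer projection neurons and in many interneurons. Slc17a7 was at 13.4, 22.1 and 34.8 on day 26, 19.3, 29.4 and 96.0 on day 27, and 12.6 and 18.2 on day 28 (0.66 ± 0.24, adjusted p = 0.121). Camk2a was at 13.7, 18.4 and 24.6 on day 26, 16.4, 36.7 and 46.4 on day 27, and 15.5 and 20.5 on day 28 (0.64 ± 0.21, adjusted p = 0.0855). Neurod2, a transcription factor of excitatory neurons, was at 3.17, 5.25 and 8.90 on day 26, 5.81, 7.19 and 17.9 on day 27, and 3.20 and 3.26 on day 28 (0.69 ± 0.24, adjusted p = 0.105). Its relative Neurod6 was at 0.325, 1.68 and 3.74 on day 26, 1.38, 2.79 and 7.91 on day 27, and 0.523 and 1.71 on day 28 (0.46 ± 0.27, adjusted p = 0.345). The layer genes Tbr1 and Cux2 gave 0.62 ± 0.23 and 0.40 ± 0.19 and did not pass. Slc17a6 stayed between 0.0533 and 0.429 on the 3 days.

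Of the 7 GABAergic genes 4 were higher on day 27, namely Sst, Gad1, Gad2 and Slc32a1. Sst was at 1.77, 13.0 and 23.5 on day 26, 10.2, 26.6 and 65.4 on day 27, and 3.57 and 5.19 on day 28 (1.36 ± 0.30, adjusted p = 0.0213). Gad1 was at 1.35, 2.86 and 9.36 on day 26, 5.90, 10.3 and 16.0 on day 27, and 2.07 and 3.88 on day 28 (1.25 ± 0.28, adjusted p = 0.0213). The libraries of days 27 and 26 overlapped for both. Gad2 was at 0.329, 0.877 and 2.53 on day 26, 1.92, 3.33 and 5.39 on day 27, and 0.775 and 0.788 on day 28 (1.05 ± 0.23, adjusted p = 0.0201). Slc32a1 was at 2.02, 4.47 and 10.4 on day 26, 5.57, 9.97 and 15.9 on day 27, and 2.76 and 2.89 on day 28 (0.89 ± 0.21, adjusted p = 0.0285). All 7 GABAergic genes lay above 0 and had an unadjusted p under 0.05, where 23.1% of all genes had such a p. Without WT replicate 1, Sst, Gad1, Gad2 and Slc32a1 missed the threshold (adjusted p = 0.0689 to 0.0799).

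The other 3 GABAergic genes, markers of interneuron classes, missed the threshold in the main analysis by a small margin. Vip was at 0, 1.11 and 4.14 on day 26, 1.53, 4.68 and 12.0 on day 27, and 0.107 and 0.625 on day 28 (1.29 ± 0.37, adjusted p = 0.0517). Pvalb was at 0.426, 0.566 and 1.21 on day 26, 0.701, 1.45 and 3.56 on day 27, and 0.275 and 0.575 on day 28 (0.56 ± 0.17, adjusted p = 0.0629). Npy was at 1.00, 1.88 and 3.76 on day 26, 1.74, 4.74 and 8.49 on day 27, and 1.06 and 1.26 on day 28 (0.80 ± 0.25, adjusted p = 0.0726).

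**Figure D2:**
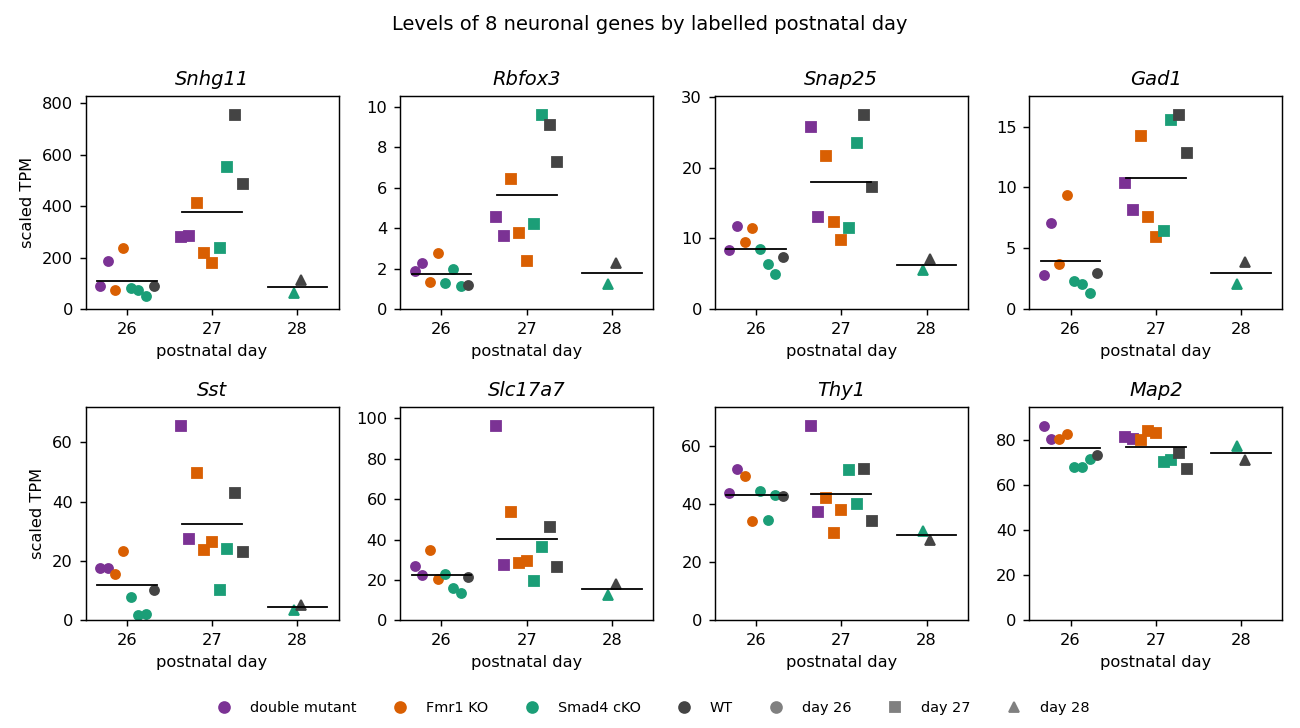
Scaled TPM of 8 members in each library by postnatal day (8, 9 and 2 libraries), with colour for the genotype label and a black line at the mean. Snhg11, Rbfox3, Snap25, Gad1 and Sst sit higher on day 27, and Thy1 and Map2 have nearly the same mean on days 26 and 27, with Thy1 spread more widely on day 27 (30.2 to 66.9) than on day 26 (34.3 to 52.2).

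For 0 of the 30 members did the 9 libraries of day 27 and the 8 of day 26 fall apart without overlap, where 0.379% of all tested genes did so. Within genotype labels, the median difference of the members between days 27 and 26 was 0.81 in the double mutant (2 and 2 libraries), 0.34 in Fmr1 KO (3 and 2), 1.08 in Smad4 cKO (2 and 3) and 1.20 in WT (2 and 1). Between 28 and 30 of the 30 members were above 0 in each. The count of members that passed rested on a few libraries. Without WT replicate 1, the one WT library of day 26, 3 passed (Rbfox3, Syt1 and Grin2a), and without Smad4 cKO replicate 6, 7 passed (those 3, Stmn2, Gad2, Syn1 and Snhg11). Over all genes, 114 of 15055 passed without WT replicate 1 and 292 of 15049 without Smad4 cKO replicate 6. With libraries labelled Fmr1 intact alone 13 members passed, where 524 of 15089 genes did. With those labelled Fmr1 KO alone 0 members passed, where 4 of 14967 genes did. Whether the difference between days itself depended on the Fmr1 label was tested after the values were seen: 0 of 30 members passed, where 0.00% of all genes did, with 26 of 30 below 0 and a median of -0.64. At an unadjusted p under 0.05 were 9 members, against 11.3% of all genes.

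Day 28 was represented by 2 libraries, and both were low. Between day 28 and day 27 the members' median difference was -1.17, with 0 of 30 passing (0.00% of all genes passed) and 25 at an unadjusted p under 0.05, against 12.5% of all genes. Between day 28 and day 26 the median was -0.28, with 0 passing (0.00% of all genes) and 1 at an unadjusted p under 0.05, against 4.03% of all genes. The summed level of the 32 genes was between 299 and 620 (median 422) on day 26, between 578 and 1395 (median 929) on day 27, and 306 and 380 on day 28. The sum thus did not follow age in one direction. Snhg11 alone held 755 of the highest sum, 1395 (WT replicate 3, day 27), so the sum rests in large part on this 1 RNA there. Both day 28 comparisons were added after the values were seen.

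**Figure D3:**
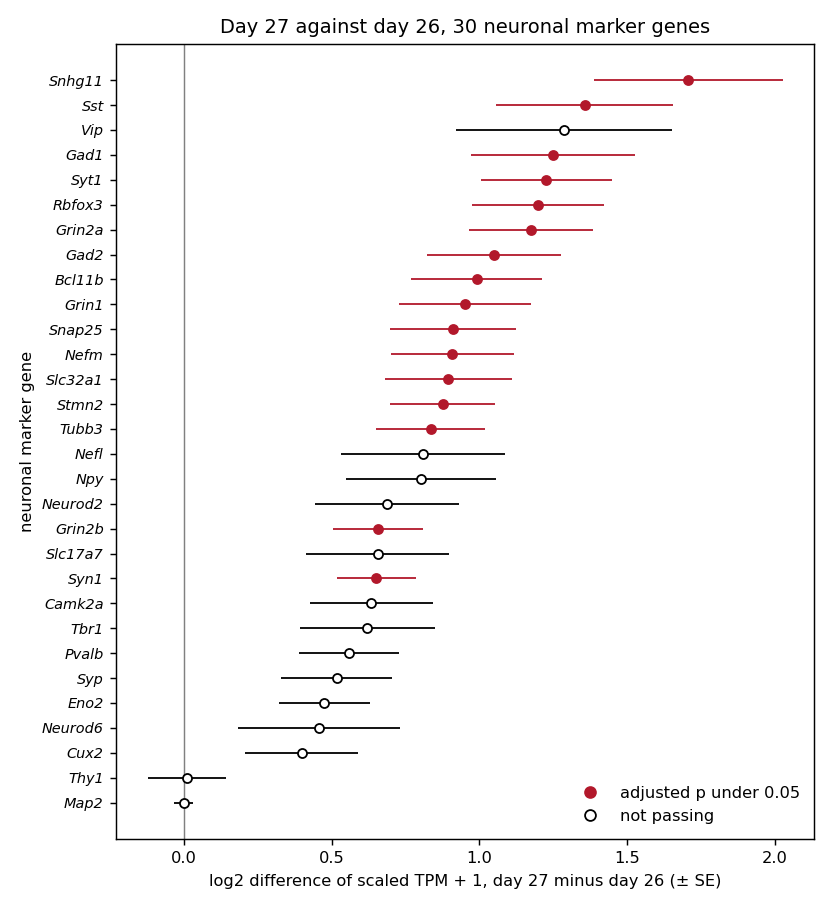
Difference between day 27 and day 26 for each of the 30 tested members, as log2(scaled TPM + 1) with its standard error from limma, red where the adjusted p is under 0.05. The 16 members that passed lie between 0.65 and 1.71, and Thy1 and Map2 lie at 0.

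Neuronal genes outside the set were described with 7 further lists. Of all 15049 genes, 3.62% were higher on day 27 and 2.21% lower. Of 18 genes for synaptic vesicles and release, 10 were higher on day 27 and 0 lower, among them the active-zone scaffold Bsn (0.58 ± 0.13) and the vesicle glycoprotein Sv2b (0.77 ± 0.18). Of 14 ion channel genes 9 were higher, among them the potassium channel Kcnc2 (1.65 ± 0.31) and the calcium channel Cacna1b (1.15 ± 0.22). Of 13 postsynaptic and GABA-A receptor genes 6 were higher, including the receptor subunit Gabrd (1.06 ± 0.17). The GABAergic developmental gene Lhx6 (1.11 ± 0.24), the long RNA Dlx6os1 (1.24 ± 0.30) and the tachykinin gene Tac1 (0.82 ± 0.21) were among 4 of 11 interneuron genes that passed. Tac1 kept its call in 13 of 29 alternatives and Dlx6os1 in 22 of 30.

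Of 13 excitatory layer genes 3 passed, with Rasgrf2 at 0.78 ± 0.18 and the vesicular zinc transporter Slc30a3 at 1.04 ± 0.24. Of 7 neuronal RNA-binding proteins 4 passed, among them the splicing factors Rbfox1 (1.18 ± 0.20) and Celf4 (1.30 ± 0.27) and the RNA-stabilising protein Elavl2 (1.09 ± 0.22). Of 6 neuron-rich long non-coding RNAs 3 passed, and these were Meg3 (1.77 ± 0.36), Mirg (1.36 ± 0.29) and Rian (1.38 ± 0.30), which lie in one imprinted cluster. Each gene of these lists named here had an adjusted p of 0.0355 or less, and 0 genes of the 7 lists were lower. Over all tested genes 3.62% were higher and 2.21% lower. List medians ran from 0.37 for the excitatory layer genes to 0.98 for the long non-coding RNAs, against -0.0042 over all genes. Without WT replicate 1, Kcnc2, Gabrd and Rbfox1 were the ones of these named genes that passed.

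Markers of other cells moved between the same days, where 3.62% of all genes were higher on day 27 and 2.21% lower. All 15 astrocyte markers lay below 0 on day 27 against day 26, with a median of -0.23, and 2 fell past the threshold: the glycolytic enzyme Aldoc (-0.70 ± 0.11, adjusted p = 0.00982) and the gap junction gene Gja1 (-0.72 ± 0.19, adjusted p = 0.0412). Their summed level was 7610 to 12256 on day 26, 7119 to 8812 on day 27, and 8549 in both day 28 libraries. Of 5 oligodendrocyte precursor markers 2 fell, Pdgfra (-1.26 ± 0.27) and Cspg4 (-0.90 ± 0.20), with sums of 64.8 to 539 on day 26, 27.2 to 204 on day 27, and 35.7 and 136 on day 28. Of 9 microglial markers 1 fell, the list's median was -1.19, and its sums were 92.4 to 323 on day 26, 26.3 to 202 on day 27, and 235 and 239 on day 28. Without WT replicate 1, Aldoc alone of the genes named here passed, and Gja1 kept its call in 11 of 31 alternatives.

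The remaining lists gave 0 calls between days 27 and 26, where 5.83% of all genes passed. The medians were 0.23 over 10 oligodendrocyte, -0.27 over 8 endothelial, -0.17 over 7 mural and 0.67 over 5 ependymal markers. Oligodendrocyte sums were 246 to 3195 on day 26, 303 to 3724 on day 27, and 285 and 739 on day 28. Of the markers of these other cell types, Aif1 was listed at 0 in 1 library and the rest were above 0 in all. Rn45s took 15.6% to 27.3% of the listed TPM on day 26, 15.8% to 35.7% on day 27, and 27.3% and 28.5% on day 28. The part of these differences in the neuronal result was not tested.

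The comparisons by genotype label that the design set out gave no call among the members. In Smad4 cKO against WT, 0 of 30 members passed, where 0.784% of all genes did (0.525% higher and 0.259% lower), and 0 had an unadjusted p under 0.05, where 8.28% of all genes did. The members' median was -0.48, with 3 of 30 above 0. Sst had the smallest p, at -1.28 ± 0.62 (adjusted p = 0.608), then Neurod6 at -0.68 ± 0.38, Pvalb at -0.47 ± 0.30 and Grin1 at -0.67 ± 0.43. Within days the median was -0.18 on day 26 (3 and 1 libraries), -0.31 on day 27 (2 and 2) and -0.31 on day 28 (1 and 1).

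In the double mutant against Fmr1 KO, 0 of 30 members passed, where 0.405% of all genes did, and 0 had an unadjusted p under 0.05, where 5.48% of all genes did. The median was 0.05. Thy1 was at 0.34 ± 0.20, Nefl at -0.31 ± 0.46, Eno2 at 0.17 ± 0.27 and Grin2b at -0.18 ± 0.31, each with an adjusted p of 1. Without double mutant replicate 3, Eno2 turned to -0.084, and without double mutant replicate 2, Nefl turned to 0.12. The median was -0.07 within day 26 (2 and 2 libraries) and 0.27 within day 27 (2 and 3).

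The values of single members show the overlap of the groups. Snap25 was at 8.31, 11.7, 25.7 and 13.0 in the double mutant, at 21.6, 9.54, 11.5, 12.3 and 9.79 in Fmr1 KO, at 4.98, 7.42 and 23.4 (lowest, median and highest of 6) in Smad4 cKO, and at 7.39, 7.07, 27.4 and 17.2 in WT. Sst was at 17.5, 17.6, 65.4 and 27.3 in the double mutant, at 49.7, 15.7, 23.5, 23.7 and 26.6 in Fmr1 KO, at 1.77, 5.65 and 23.9 in Smad4 cKO, and at 10.4, 5.19, 42.9 and 23.1 in WT. In each group the highest Snap25 and Sst values came from day 27 libraries. Rbfox3 averaged 3.08 ± 1.22 in the double mutant (SD, n = 4), 3.35 ± 1.94 in Fmr1 KO (n = 5), 3.24 ± 3.32 in Smad4 cKO (n = 6) and 4.95 ± 3.83 in WT (n = 4). The ranges of all 4 groups overlapped. The distance between the double mutant and WT means was larger than the SD of the double mutant but smaller than that of WT.

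In Fmr1 KO against WT, 0 of 30 members passed, where 0.00% of all genes did, with a median of 0.03. At an unadjusted p under 0.05 were 3 of 30 members, close to the share of 8.23% of all genes. Map2 was at 0.20 ± 0.05 (adjusted p = 0.154), Nefm at 1.25 ± 0.40 (adjusted p = 0.287), Nefl at 1.06 ± 0.46 (adjusted p = 0.534) and Tubb3 at 0.54 ± 0.40. Without WT replicate 3 Map2 passed. The members' median was 0.48 within day 26 (2 and 1 libraries) and -0.39 within day 27 (3 and 2).

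In the double mutant against Smad4 cKO, 0 of 30 members passed, where 0.0199% of all genes did (0.0133% higher and 0.00664% lower), with 29 above 0 and a median of 0.58. At an unadjusted p under 0.05 were 8 members, against 7.56% of all genes. Map2 was at 0.21 ± 0.04 and Nefm at 1.43 ± 0.39 (adjusted p = 0.414 for both), Sst at 2.06 ± 0.62 (adjusted p = 0.419) and Slc32a1 at 1.12 ± 0.41 (adjusted p = 0.523). The median was 0.50 within day 26 (2 and 3 libraries) and 0.14 within day 27 (2 and 2). Endothelial markers had a median of -0.97 and oligodendrocyte markers of 0.94 in the same comparison, and their part was not tested.

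In the double mutant against WT, 0 of 30 members passed, where 0.957% of all genes did, with a median of 0.14. At an unadjusted p under 0.05 were 2 members (6.67%), against 12.0% of all genes. Map2 was at 0.20 ± 0.05 (adjusted p = 0.0635), Nefm at 1.43 ± 0.42 (adjusted p = 0.135), Thy1 at 0.35 ± 0.21 and Nefl at 0.75 ± 0.49. Map2 passed without WT replicate 3 or Smad4 cKO replicate 4. The interaction, which is how far the double mutant differed from Fmr1 KO beyond how far Smad4 cKO differed from WT, gave 0 of 30 members, where 0.00% of all genes passed, 0 at an unadjusted p under 0.05 (1.66% of all genes) and a median of 0.51. Sst was at 1.36 ± 0.89, Slc32a1 at 0.77 ± 0.60, Eno2 at 0.48 ± 0.38 and Neurod6 at 0.68 ± 0.55. These comparisons share groups, so they are not independent.

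Of the 7 further neuronal lists, 2 genes passed by genotype in the comparisons above. Syn2, which encodes synapsin II, was higher in Smad4 cKO than in WT (0.61 ± 0.11, adjusted p = 0.00601) and in the double mutant than in WT (0.69 ± 0.12, adjusted p = 0.00536). Nova1, a splicing factor, was higher in the same 2 comparisons (0.28 ± 0.06, adjusted p = 0.0147, and 0.39 ± 0.06, adjusted p = 0.00399). Both comparisons use the same WT libraries, and 0.784% and 0.957% of all genes passed in them. With the compared groups alone in the fit, Syn2 missed the threshold in both (adjusted p = 0.0846 and 0.0968), and Nova1 missed it in the double mutant against WT (adjusted p = 0.0712). Without WT replicate 2, Nova1 missed it in Smad4 cKO against WT (adjusted p = 0.0739). With the replicate block, both genes missed it in Smad4 cKO against WT (adjusted p = 0.0559 for Syn2 and 0.0934 for Nova1).

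**Figure D4:**
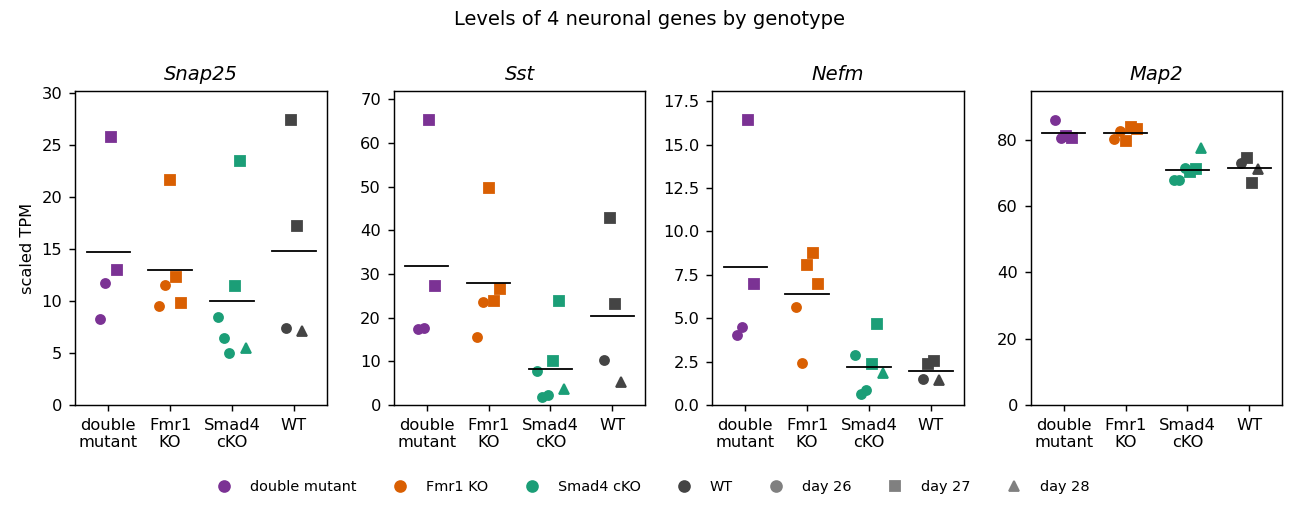
Scaled TPM of Snap25, Sst, Nefm and Map2 in each library by genotype label (4 double mutant, 5 Fmr1 KO, 6 Smad4 cKO and 4 WT libraries), with marker shape for the postnatal day and a black line at the mean. Snap25 and Sst overlap between all groups, and Map2 lies at 79.85 or above in both groups labelled Fmr1 KO and at 77.5 or below in the others.

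Since Map2 and Nefm had the smallest p in each comparison by the Fmr1 label, the label was also compared as the mean of double mutant and Fmr1 KO against the mean of Smad4 cKO and WT, a comparison chosen after the values were seen. Of 30 members 2 passed, both higher, where 1.53% of all genes passed, 0.299% higher and 1.23% lower. Map2 was at 86.1, 80.6, 81.2 and 80.6 in the double mutant and at 79.85, 80.4, 82.7, 84.0 and 83.3 in Fmr1 KO, against 67.8, 70.7 and 77.5 (lowest, median and highest of 6) in Smad4 cKO and 73.2, 71.2, 74.4 and 67.1 in WT. The 9 libraries labelled Fmr1 KO all lay above the 10 labelled intact, as for 0.113% of all tested genes. The difference was 0.20 ± 0.03 (adjusted p = 0.0164), which is 1.15-fold. It was 0.23 within day 26 (4 and 4 libraries) and 0.21 within day 27 (5 and 4).

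Nefm was at 4.05, 4.46, 16.4 and 6.95 in the double mutant and at 8.05, 5.62, 2.44, 8.74 and 6.99 in Fmr1 KO, against 0.614, 2.08 and 4.65 in Smad4 cKO and 1.47, 1.44, 2.37 and 2.55 in WT. The groups overlapped between 2.44 and 4.65. The difference was 1.34 ± 0.28 (adjusted p = 0.0249), which is 2.53-fold, and within days it was 1.11 on day 26 and 1.36 on day 27. Nefm missed the threshold without WT replicate 2, Fmr1 KO replicate 4, double mutant replicate 2 or double mutant replicate 3, with adjusted p of 0.0501 to 0.0614. Map2 missed it with quantile normalization (adjusted p = 0.0592). With the replicate block both Map2 and Nefm missed it (adjusted p = 0.0853 for each), where 2 of 15049 genes passed. Sst, at 1.38 ± 0.44, had an adjusted p of 0.147, and passed with library weights (1.66, adjusted p = 0.0357). Over the 28 alternatives its adjusted p ran from 0.0357 to 0.339.

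By the Fmr1 label, the members' median was 0.27 over all libraries, 0.51 within day 26 with 30 of 30 above 0, and -0.21 within day 27 with 12 of 30 above 0. Shank3, a postsynaptic scaffold of another list, was lower in libraries labelled Fmr1 KO (-0.46 ± 0.11, adjusted p = 0.0437) and kept its call in 7 of 28 alternatives. In the same comparison 6 of 8 endothelial markers were lower, with a median of -1.04, and 1 of 7 mural markers. Of all genes 1.23% were lower there. The endothelial genes Flt1 (-1.33 ± 0.24), Slco1a4 (-1.45 ± 0.28) and Tek (-0.88 ± 0.17) and the mural gene Abcc9 (-0.69 ± 0.16) all missed the threshold with postnatal day as a factor (adjusted p = 0.0552 to 0.0869) and with the replicate block (adjusted p = 0.0853 to 0.122). Abcc9 kept its call in 11 of 22 alternatives. Endothelial sums were 89.4 to 173 in the double mutant and 67.3 to 214 in Fmr1 KO, against 182 to 378 in Smad4 cKO and 113 to 523 in WT. Rn45s took 15.6% to 23.1% of the listed TPM in the double mutant and 17.2% to 22.8% in Fmr1 KO, against 21.3% to 35.1% in Smad4 cKO and 20.7% to 35.7% in WT. Their part in the values of Map2 and Nefm was not tested.

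By the Smad4 label, averaged over the Fmr1 labels and also chosen after the values were seen, 0 of 30 members passed, where 1.81% of all genes did. The median was -0.20, with 2 members above 0 and 0 at an unadjusted p under 0.05 (11.0% of all genes). Syn2 and Nova1 were higher there too (0.49 ± 0.08 and 0.23 ± 0.04).

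The genes of the set differ in locus span, from the 513 kb of Syt1 to the 1.77 kb of Sst, and span was set beside the differences as a description. Across the 30 members, Spearman's rho of span with the difference between days 27 and 26 was 0.10, and over 14555 tested genes with a span it was 0.19. With the difference by the Fmr1 label it was -0.61 across the members and -0.06 over all genes. Genes share libraries and are not independent replicates, so no p is given. Of the 32 members, 19 overlap another gene in GENCODE and 5 of these overlap a protein-coding one (Nefl, Nefm, Syn1, Syt1 and Tubb3), and their values may hold reads of the neighbour.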

How the data were processed

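Nuclear RNA of sorted cortical astrocyte nuclei was measured in 19 libraries of 4 genotype labels. The authors deposited 1 table of 24537 genes in TPM. Per the submitters' processing notes, bcl2fastq 2.20, MultiQC 1.0, STAR 2.5.3a and HOMER 4.10.4 were used with build mm10. The counted features (exons or gene bodies) and the strand setting are not given in the sources used here. TPM keeps no read counts, so depth is unknown and no count model was used.

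Libraries were scaled by median-of-ratios factors from 14084 genes, and log2(scaled TPM + 1) was fitted with limma 3.58.1 (R 4.3.3, trend on) for the 15049 genes whose mean TPM reached 1. All 19 libraries entered 1 fit with group as the term, plus postnatal day as a factor for comparisons of days. P-values were adjusted by Benjamini-Hochberg over all tested genes within a comparison, at 0.05. They measure the spread between libraries, which the design text calls biological replicates. The fit was tested on simulated data with known changes. The simulated noise was independent between genes and had the spread left after group and day were fitted. Genotype fits of the real data leave day out, so the simulation does not show their error rate.

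The members, lists and naming rule were chosen with earlier results of these data known. By the rule, values were given for 21 members, and fitted values for members that passed and for the 4 tested members of smallest p in each comparison, plus up to 3 genes of each further list. A few of these genes are not reported here, although every count includes them. Positions are RefSeq GRCm38.p6, and overlaps are from GENCODE vM21 on the same build. Alternatives were quantile normalization, no scaling, no filter, a filter at a mean TPM of 5, a pseudocount of 0.1 or 0.5, a replicate block, day as a factor, the compared groups or days alone, library weights and each library left out. Same-numbered libraries of different groups did not vary together (25 pairs, 5 with a correlation over 0.1, range -0.27 to 0.20), so numbers were not taken as pairs. Promoters and plots used Python 3.11.15, pandas 2.3.3 and matplotlib 3.10.9.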

Additional observations from a re-analysis of the deposited data

Results flagged for a closer look

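In 128 sets of a member in 1 genotype group, the highest or lowest library was set against its nearest neighbour. In 19 sets a library lay far from the others. The rule flags about 1 in 20 sets drawn from 1 normal population. Scaled TPM was used without logs and each group mixed days, so that rate is no baseline here. In 18 of the 19 the library that stood apart was of day 27 and high. In Smad4 cKO replicate 6 these were Snhg11 at 552 scaled TPM, Camk2a at 46.4, Snap25 at 23.4, Grin2b at 19.8, Gad1 at 15.6, Neurod2 at 13.5, Vip at 12.0, Grin2a at 11.4 and Rbfox3 at 9.59. In double mutant replicate 3 they were Slc17a7 at 96.0, Eno2 at 73.7, Syp at 65.0 and Tbr1 at 14.4. In Fmr1 KO replicate 1 they were Eno2 at 54.9, Snap25 at 21.6 and Stmn2 at 5.25, and in WT replicate 3 they were Tbr1 at 15.4 and Neurod6 at 5.49. The one exception was Map2 at 86.1 in double mutant replicate 1, of day 26. Members of a library are not independent, so the number of sets is a description.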

How the results depend on the processing

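Over 28 to 31 alternatives, Smad4 cKO against WT, the double mutant against Fmr1 KO, the double mutant against Smad4 cKO, the interaction, the averaged Smad4 label and day 28 against day 26 gave 0 members in each. In Fmr1 KO against WT, 0 to 1 passed with a library left out. In the double mutant against WT, 1 passed with TPM as deposited, with no filter and with day as a factor, and 0 to 1 with a library left out. By the averaged Fmr1 label 2 passed in the main analysis, 1 with quantile normalization, 1 with a filter at 5 TPM, 3 with library weights (Sst added) and 1 to 2 with a library left out. Between days 27 and 26, where 16 passed, 10 of 20 tested did with the filter at 5 TPM (fewer members tested). With a library left out 3 to 19 members passed. With libraries labelled Fmr1 KO alone (9 libraries) 0 members passed, where 4 of 14967 genes did. Without both day 28 libraries and double mutant replicate 3, chosen after seeing the data, 13 members passed, where 672 of 15038 genes did. The members' median there stayed between 0.55 and 1.06 in all 31. Between day 28 (2 libraries) and day 27, 14 members passed with library weights, where 416 of 15049 genes did. All 14 lay in the direction of the main analysis, in which 0 of 15049 genes passed. The cause was not tested. In the double mutant against Fmr1 KO, Nefl ran from -0.84 to 0.12 with a library left out, positive without double mutant replicate 2, and Eno2 from -0.084 to 0.30, negative without double mutant replicate 3. With a replicate block, 0 members passed between days 27 and 26 (0 of 15049 genes) and 0 by the averaged Fmr1 label (2 of 15049 genes). The medians were 1.06 and 0.41. The calls of Syn2 and Nova1 in Smad4 cKO against WT were lost with the block too. The numbers run partly with day, and 3 of 19 libraries correlated best with a library of their own number in another group. TPM without depth limits what can be said of the lowest genes.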
